A study of Mus musculus with 17 samples.

Results

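The genes described here are the 36 that carry out fatty acid oxidation in mitochondria and peroxisomes, among 16569 named genes of a mouse heart RNA-seq series. Each gene was taken as its RefSeq messenger RNA entry, matched by symbol; 35 had 1 entry, and for Eci2, with 2, the entry with the highest mean over all libraries was used. Total RNA of the right ventricle (RV) and left ventricle (LV) of untreated male mice of the C57Bl/6 strain was sequenced on postnatal days 0 (P0), 3 (P3) and 7 (P7), from strand-specific libraries read at both ends. The RV had 3 libraries at P0, 3 at P3 and 2 at P7, and the LV had 3 at each age. The labels call them biological replicates, place P0 before closure of the arterial duct and P7 when nearly all cardiomyocytes are terminally differentiating. A level is given in RPKM, reads per kilobase of transcript per 1000000 reads, so that levels of different genes are compared per length. A change is a difference of mean log2(RPKM + 1) with its standard error (SE) from limma, and it was called where the Benjamini-Hochberg adjusted p lay under 0.05. The adjustment ran over the 10668 entries that reached 1 RPKM in 2 or more libraries. Of the 36 members, 34 passed that filter, and Acad10 and Abcd2 did not.

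Fatty acids enter the mitochondrial matrix as carnitine esters, and a cycle of dehydrogenation, hydration, a further dehydrogenation and thiolysis then shortens the chain and releases acetyl-CoA. Electrons from the acyl-CoA dehydrogenases pass through the electron transfer flavoprotein to the respiratory chain, and malonyl-CoA blocks the entry step. Very long and branched chains begin their oxidation in peroxisomes. The fetal heart relies largely on glucose and lactate, and the heart turns to fatty acids after birth, when milk supplies them.

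Promoter stretches of 6 members are shown for 5 genes called higher at P3 and P7 and for Echs1, called lower at both ages in the RV and at P7 in the LV as deposited, with the P7 calls lost under the other scalings. Each is the 250 bases before the start that the RefSeq promoter table lists first (build GRCm38.p6, the build of all coordinates given here). For Cpt1a, that start lies inside the coordinates RefSeq gives for the gene, so its stretch is not upstream of the whole gene. The stretches run 5′ to 3′ on the strand of the gene, in lower case, with AGGTCA, the hexamer that PPAR and ERR nuclear receptors bind, in capitals on either strand (TGACCT when it lies on the other). Ech1, chr7:28825088-28825337 (plus strand), had the largest change of all members.
Ech1: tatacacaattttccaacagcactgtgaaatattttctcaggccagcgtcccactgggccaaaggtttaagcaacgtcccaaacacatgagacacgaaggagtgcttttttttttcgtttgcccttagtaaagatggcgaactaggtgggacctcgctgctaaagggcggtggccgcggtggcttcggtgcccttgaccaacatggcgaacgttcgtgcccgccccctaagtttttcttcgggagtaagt
Hadhb, chr5:30155003-30155252 (plus strand), shares 228 of these bases with the stretch of Hadha, which is transcribed the other way from a start 273 bases off.
Hadhb: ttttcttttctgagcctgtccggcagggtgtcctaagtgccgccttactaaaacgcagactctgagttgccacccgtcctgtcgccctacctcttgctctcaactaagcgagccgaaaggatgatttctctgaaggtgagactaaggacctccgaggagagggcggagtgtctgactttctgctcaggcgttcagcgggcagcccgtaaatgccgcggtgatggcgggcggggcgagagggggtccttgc
Acadvl, chr11:70015429-70015678 (minus strand), Acadm, chr3:153944644-153944893 (minus strand), and Cpt1a, chr19:3323051-3323300 (plus strand), belong to genes that rose and hold the hexamer. Echs1, chr7:140116422-140116671 (minus strand), is a gene with the hexamer that was called lower at P7 as deposited only.
Acadvl: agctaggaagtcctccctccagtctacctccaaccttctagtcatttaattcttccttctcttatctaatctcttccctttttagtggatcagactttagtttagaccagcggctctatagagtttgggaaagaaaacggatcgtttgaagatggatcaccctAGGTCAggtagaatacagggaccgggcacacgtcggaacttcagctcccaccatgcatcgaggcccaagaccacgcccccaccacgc
Acadm: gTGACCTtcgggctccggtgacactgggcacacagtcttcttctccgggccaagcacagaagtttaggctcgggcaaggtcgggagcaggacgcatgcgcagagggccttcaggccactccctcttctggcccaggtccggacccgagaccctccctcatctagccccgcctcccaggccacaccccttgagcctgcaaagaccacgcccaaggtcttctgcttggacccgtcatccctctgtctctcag
Cpt1a: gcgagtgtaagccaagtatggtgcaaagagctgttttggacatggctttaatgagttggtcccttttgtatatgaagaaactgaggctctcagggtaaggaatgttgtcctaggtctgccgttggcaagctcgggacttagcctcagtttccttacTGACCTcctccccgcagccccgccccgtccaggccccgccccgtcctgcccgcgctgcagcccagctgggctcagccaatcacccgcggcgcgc
Echs1: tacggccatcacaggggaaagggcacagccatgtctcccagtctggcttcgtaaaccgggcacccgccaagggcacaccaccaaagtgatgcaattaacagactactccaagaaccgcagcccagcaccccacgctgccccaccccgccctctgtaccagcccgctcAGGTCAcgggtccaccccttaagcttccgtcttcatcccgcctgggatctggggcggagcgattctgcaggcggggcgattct

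A stretch was found for 29 of the 36 members, and 4 of those held AGGTCA on either strand (Acadm, Acadvl, Cpt1a and Echs1), 13.8%, against 13.8% of 27025 stretches of the same length over all genes. The hexamer was thus as frequent among the members as among all genes in these windows, and it stood in 3 members that rose and in Echs1. The ERR motif TCAAGGTCA, which contains the hexamer, was in 0 of the member stretches and in 0.366% of all; the PPAR direct repeat AGGTCANAGGTCA, which contains it as well, was in 0 and in 0.037%. A match is a description of these letters, and sites elsewhere in the gene were not searched.

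The libraries held 27.6 M to 41.1 M reads (M, reads in units of 1000000; median 36.2 M), as recovered from the values. The members that passed the filter had at least 108 reads in every library, the fewest in Pex11a. Libraries stood apart in ways other than chamber and age. The entry NM_008710 has no gene in the tables used here. It stood at 2.99 to 15.6 RPKM in the 6 P0 libraries and in replicate 1 of P3 and of P7 in both chambers. In the other 7 P3 and P7 libraries it stood at 0.128 to 0.205 RPKM. All P0 libraries lay on the high side, so in the full set what this split marks cannot be fully told apart from age. The median changes are therefore also given from the 10 libraries in which NM_008710 was at 1 RPKM or more. The share of reads that lay in the listed entries, over the 20609 entries with a recovered length, averaged 67.2%, 60.05% and 54.5% at P0, P3 and P7 in the RV, and 68.6%, 61.4% and 55.2% in the LV. Along with this, the median log2 change over all tested entries was -0.29 in the RV and -0.31 in the LV between P7 and P0, and -0.09 and -0.13 between P3 and P0. Upper-quartile scaling moved these medians to -0.02, -0.02, 0.02 and 0.00. A small change of a single member therefore depends on the scaling.

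Most members were higher at P3 and at P7 than at P0, in both ventricles. At P3, 21 of 34 tested members were higher and 3 lower than at P0 in the RV, where 9.72% of all tested entries were called higher and 21.5% lower; in the LV 25 were higher and 1 was lower, against 7.26% and 20.6% of all entries. At P7, 21 were higher and 4 lower than at P0 in the RV, against 9.81% and 46.1% of all entries, and 20 were higher and 5 lower in the LV, against 11.8% and 53%. The median change of the tested members was 0.49 in the RV and 0.55 in the LV at P3, and 0.43 and 0.31 at P7. The P3 and P7 comparisons share their P0 libraries, so their counts are not independent of each other. In bulk tissue, fewer cells of a type and less RNA per cell cannot be told apart.

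Under the other scalings, more members were called higher than at P0 and fewer were called lower. Under upper-quartile scaling, 27 of 34 tested members were called higher and 0 lower at P7 in each chamber, beside 2117 higher and 2193 lower of 10668 entries in the RV and 2604 and 2698 in the LV. At P3 it gave 27 higher and 1 lower in the RV, beside 1856 and 1504 of all tested entries. In the LV it gave 26 and 0, beside 1386 and 1134. Rescaling each library to the same sum over the listed entries left all 36 members tested, among 12781 entries. At P7, 28 members were higher and 1 lower in the RV, beside 2255 and 2157 of all tested entries. In the LV they were 27 and 2, beside 2423 and 3456. At P3, 29 were higher and 0 lower in the RV, beside 2742 and 987 of all tested entries. In the LV they were 26 and 0, beside 1333 and 1053. All 21 members called higher in the RV at P7 and all 20 in the LV were also called higher under both scalings, as were the 21 and 25 called higher at P3. Among the 34, called higher under both and not as deposited were Cpt1b, Acads, Eci1, Etfa, Etfb and Acox3 at P7 in each chamber, and Cpt1b, Acads, Acad11, Hadh, Etfa and Pex11a at P3 in the RV. Acox3 at P3 and, under upper-quartile scaling alone, Acaa1a at P7 were the additions in the LV, and Hsd17b4 after rescaling alone was a further one at P3 in the RV. The members called lower than at P0 were Echs1, Hsd17b10 and Decr2 in the RV and Hsd17b10 in the LV at P3. At P7 they were Acad9, Echs1, Hsd17b10 and Decr2 in both chambers and Hsd17b4 in the LV. None of these was called lower under all of the scalings. With only the libraries in which NM_008710 was at 1 RPKM or more, 1 library per chamber was left at P3 and at P7. The fit assumed that this library varies like the others. The median change of the members was then 0.47 in the RV and 0.62 in the LV at P3, and 0.46 and 0.43 at P7. Over all 10539 tested entries it was -0.06 and -0.05 at P3, and -0.33 and -0.27 at P7. Fewer members were called in these libraries than in the full set at both ages. The members called at P7 in the full set and not in those libraries were Cpt1a, Slc22a5, Acadl, Acad9, Acad11 and Abcd3 in the RV. In the LV they were Cpt1a, Slc22a5, Acadl, Acad11, Echs1, Abcd3 and Hsd17b4.

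**Figure D1:**
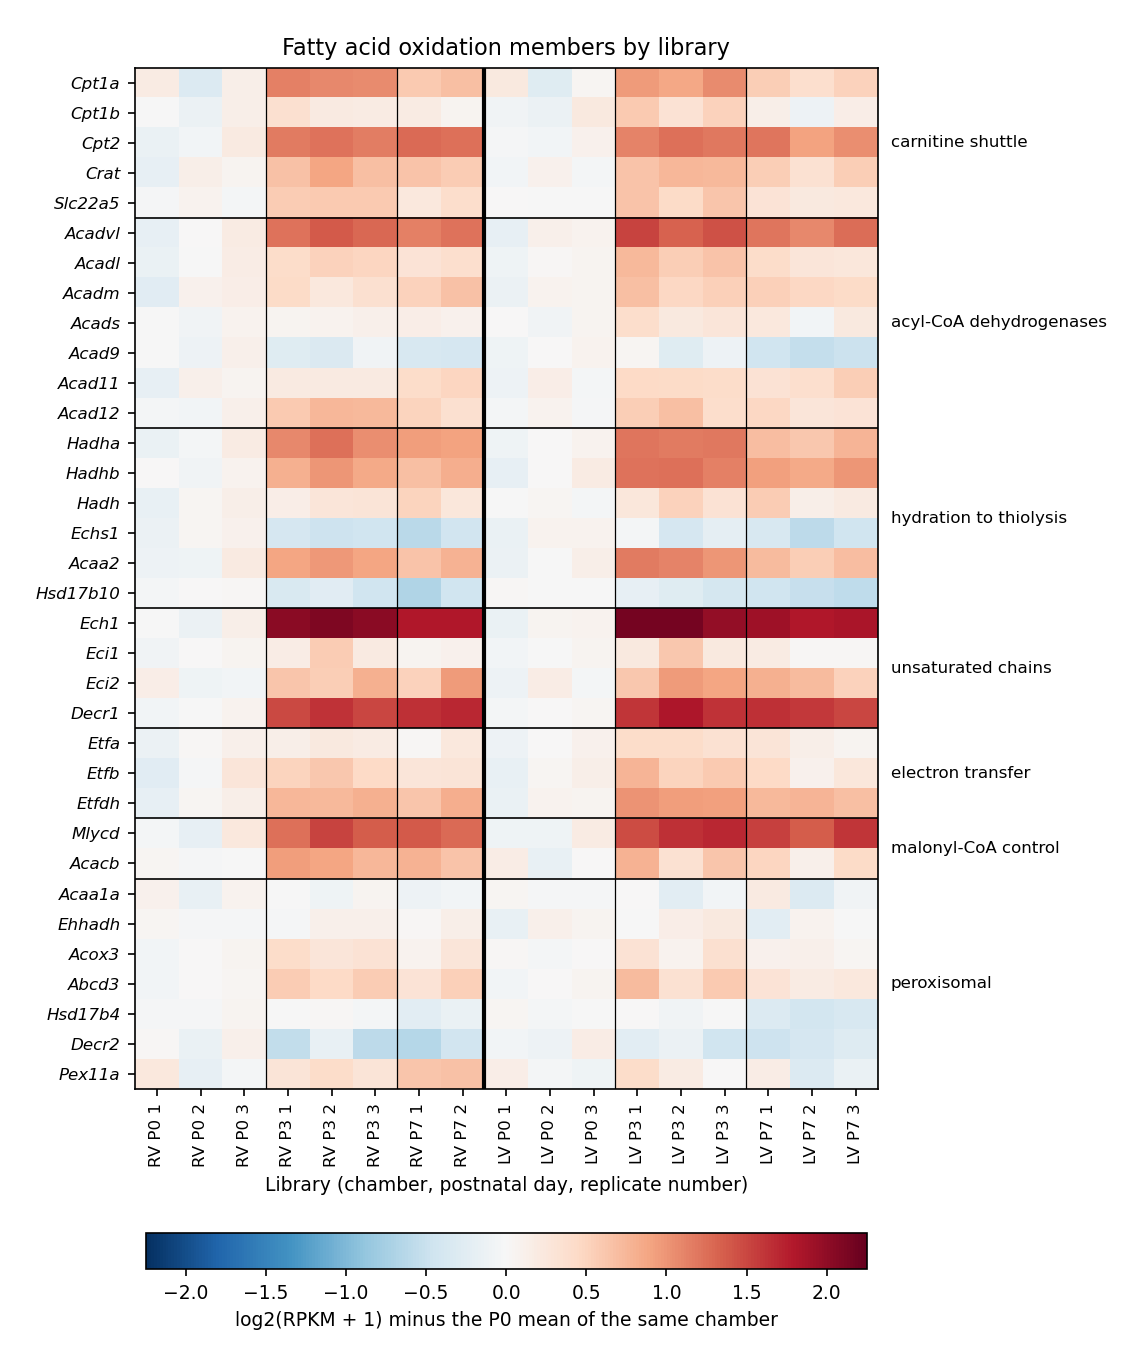
Each column is a library and each row a tested member, ordered by role; colour is log2(RPKM + 1) minus the P0 mean of the same chamber. Ech1, Decr1, Mlycd and Acadvl are the deepest red in the P3 and P7 libraries of both chambers, and the peroxisomal rows at the bottom stay pale on the deposited scale.

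Summed over the 36 members, the level averaged 3165 ± 278 RPKM at P0, 5264 ± 183 at P3 and 4866 ± 143 at P7 in the RV (SD, n = 3, 3 and 2). In the LV it averaged 3057 ± 175, 5571 ± 164 and 4605 ± 218 RPKM (SD, n = 3 each). The sum was thus 1.66 times the P0 sum at P3 and 1.54 times at P7 in the RV, and 1.82 and 1.51 times in the LV, with no P3 or P7 library inside the range of the P0 libraries. As a share of all listed RPKM, the members made up 0.774%, 1.52% and 1.49% at P0, P3 and P7 in the RV, and 0.767%, 1.56% and 1.4% in the LV. The mean LV sum at P7 was below that at P3 under all 3 scalings, at 0.827 times as deposited, 0.942 under upper-quartile scaling and 0.892 after rescaling. Under upper-quartile scaling the LV libraries overlapped, with replicate 2 of P7 at 5287 and replicate 3 of P3 at 5219. In the RV the ratio was 0.924 as deposited, 1.06 under upper-quartile scaling and 0.981 after rescaling, so that its order depended on the scaling.

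**Figure D2:**
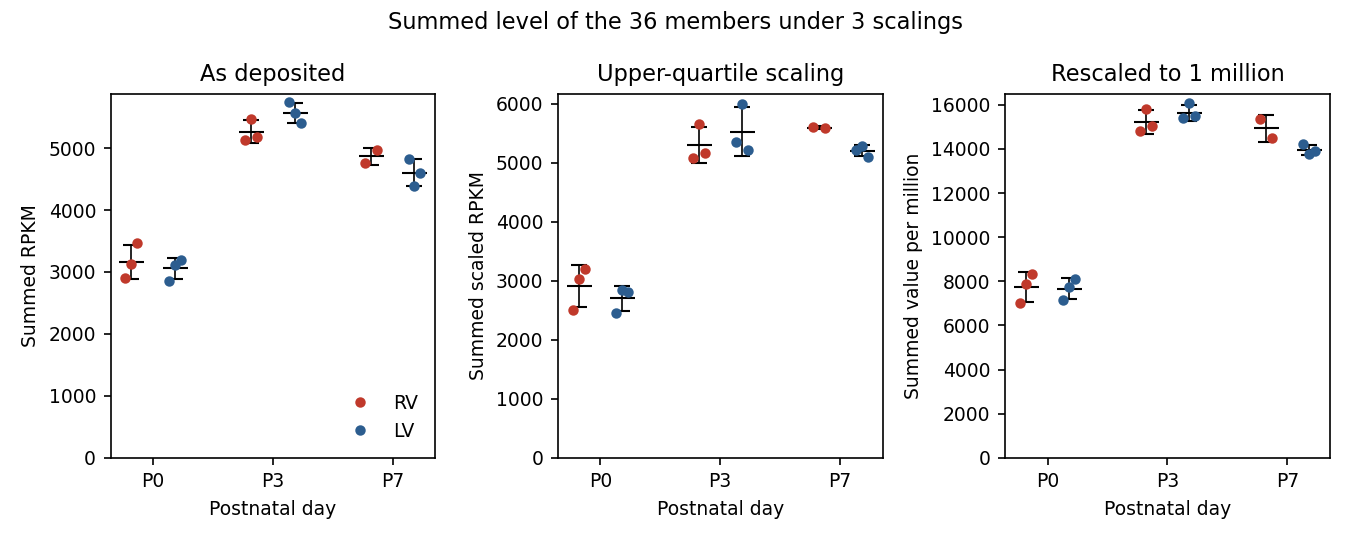
Summed level of the 36 members in each library by postnatal day, as deposited, under upper-quartile scaling and after rescaling to the same sum; RV points stand left of LV points, and bars are the mean ± SD. The P0 libraries lie below all P3 and P7 libraries in each panel, and the P7 points lie below the P3 points in the LV as deposited.

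Within the carnitine shuttle, which carries acyl groups across the mitochondrial membranes, 4 of 5 members were called higher at P3 in the RV and all 5 in the LV, and 4 of 5 in each chamber at P7. Cpt2, which returns the acyl group to CoA inside the matrix, had in RV libraries 35.5, 37.7 and 45.4 RPKM at P0, 89.5, 93.1 and 88.4 at P3, and 96.8 and 93.8 at P7. LV libraries had 38.3, 37.1 and 41.6 RPKM at P0, 85.3, 93.1 and 89.4 at P3, and 90.5, 73.9 and 81 at P7. All later libraries lay above all P0 libraries, and the RV P7 libraries were the highest. Cpt2 rose at P3 by 1.18 ± 0.09 in the RV (adjusted p = 1.9e-08) and 1.18 ± 0.09 in the LV (adjusted p = 2.51e-08). At P7, Cpt2 was higher than at P0 by 1.26 ± 0.10 in the RV (adjusted p = 2.18e-08) and 1.05 ± 0.09 in the LV (adjusted p = 3.07e-08).

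Cpt1a, the liver-type and fetal form of the outer-membrane transferase that malonyl-CoA inhibits, had in RV libraries 22.4, 15.8 and 21.7 RPKM at P0, 44.3, 43 and 42.1 at P3, and 30.2 and 32.3 at P7. LV libraries had 24.2, 16.9 and 21.2 RPKM at P0, 40.9, 38.2 and 44.2 at P3, and 30.7, 27.1 and 30.0 at P7. The ages did not overlap in either chamber, and P3 was highest. Cpt1a rose at P3 by 1.09 ± 0.12 in the RV (adjusted p = 2.04e-06) and 0.96 ± 0.12 in the LV (adjusted p = 1.26e-05). At P7, Cpt1a was higher than at P0 by 0.64 ± 0.14 in the RV (adjusted p = 0.00082) and 0.49 ± 0.12 in the LV (adjusted p = 0.00209). Cpt1b, the muscle form, had in RV libraries 16.8, 15.4 and 18.7 RPKM at P0, 21.9, 19.7 and 19.4 at P3, and 19.3 and 17.7 at P7. LV libraries had 15.3, 14.6 and 18.8 RPKM at P0, 24.8, 20.6 and 23.4 at P3, and 17.8, 14.8 and 18 at P7. Its P7 libraries overlapped the P0 range in both chambers and lay below those of P3. The P3 change of Cpt1b was 0.25 ± 0.11 in the RV (adjusted p = 0.0962) and 0.48 ± 0.11 in the LV (adjusted p = 0.00338), called in the LV; the RV change was called under upper-quartile scaling, at 0.37 (adjusted p = 0.00524), and after rescaling, at 0.49 (adjusted p = 0.00225). The Cpt1b difference at P7 from P0 was 0.12 ± 0.12 in the RV (adjusted p = 0.424) and 0.05 ± 0.11 in the LV (adjusted p = 0.679). Under upper-quartile scaling the P7 change was called at 0.43 in the RV and 0.39 in the LV.

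Because both genes were measured per length in the same libraries, the share of Cpt1b in the sum of Cpt1a and Cpt1b does not depend on how libraries are scaled. In the RV it was 42.9, 49.5 and 46.4% at P0, 33.1, 31.4 and 31.5% at P3 and 39 and 35.4% at P7. In the LV it was 38.8, 46.2 and 47.1% at P0, 37.7, 35 and 34.6% at P3 and 36.7, 35.3 and 37.5% at P7. Every P7 library lay below every P0 library of its chamber, and so did every P3 library. The mean share at P7 minus that at P0 was -9.02 percentage points in the RV and -7.54 in the LV. The two-sided exact permutation p was 0.1 in each, the smallest that 2 against 3 or 3 against 3 libraries can give, so the design cannot reach 0.05. Cpt1a was above Cpt1b in every library.

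Crat, which moves acetyl groups between CoA and carnitine, averaged 82.1 ± 9.51, 138 ± 12.5 and 125 ± 4.47 RPKM at P0, P3 and P7 in the RV (SD, n = 3, 3 and 2), and 82.8 ± 5.13, 136 ± 5.45 and 116 ± 9.63 in the LV (SD, n = 3 each). It rose at P3 by 0.74 ± 0.10 in the RV (adjusted p = 1e-05) and 0.71 ± 0.10 in the LV (adjusted p = 2.29e-05). At P7, Crat was higher than at P0 by 0.60 ± 0.11 in the RV (adjusted p = 0.000135) and 0.48 ± 0.10 in the LV (adjusted p = 0.000263). Slc22a5, the carnitine transporter of the plasma membrane, was the least abundant of the shuttle, with 4.98, 5.45 and 4.95 RPKM at P0, 8.05, 8.2 and 8.24 at P3, and 6.18 and 7.01 at P7 in RV libraries. LV libraries had 5.28, 5.25 and 5.24 RPKM at P0, 8.73, 7.46 and 8.66 at P3, and 6.73, 6.27 and 6.33 at P7. Its P7 libraries stood between those of P0 and P3 without overlap. Slc22a5 rose at P3 by 0.58 ± 0.09 in the RV (adjusted p = 8.28e-05) and 0.57 ± 0.09 in the LV (adjusted p = 0.000145). At P7, Slc22a5 was higher than at P0 by 0.31 ± 0.10 in the RV (adjusted p = 0.0157) and 0.25 ± 0.09 in the LV (adjusted p = 0.0218).

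Malonyl-CoA control moved on both of its sides. Mlycd, malonyl-CoA decarboxylase, which removes the inhibitor of fatty acid entry, had in RV libraries 13.3, 11.9 and 16.3 RPKM at P0, 33.8, 41 and 36.7 at P3, and 37.2 and 34.6 at P7. LV libraries had 11, 11 and 13.6 RPKM at P0, 34.6, 39.2 and 40.7 at P3, and 36, 32 and 38.3 at P7. Every later library was more than 2 times the highest P0 library of its chamber, and P3 and P7 overlapped. Mlycd rose at P3 by 1.37 ± 0.11 in the RV (adjusted p = 3.86e-08) and 1.61 ± 0.11 in the LV (adjusted p = 6.78e-09). At P7, Mlycd was higher than at P0 by 1.32 ± 0.13 in the RV (adjusted p = 1.54e-07) and 1.5 ± 0.11 in the LV (adjusted p = 3.58e-09). Acacb, the acetyl-CoA carboxylase that makes malonyl-CoA at the mitochondrial surface, had in RV libraries 14.3, 13.6 and 13.7 RPKM at P0, 27.5, 26.4 and 24.1 at P3, and 24.6 and 22.1 at P7. LV libraries had 17.9, 13.9 and 15.9 RPKM at P0, 27.8, 20.4 and 25 at P3, and 22.5, 17.2 and 21.6 at P7. Acacb also rose at P3, by 0.86 ± 0.12 in the RV (adjusted p = 1.97e-05) and 0.59 ± 0.12 in the LV (adjusted p = 0.00112). At P7, Acacb was higher than at P0 by 0.71 ± 0.13 in the RV (adjusted p = 0.000201) and 0.34 ± 0.12 in the LV (adjusted p = 0.0165). For Acacb, 1 LV P7 library lay inside the LV P0 range. The other carboxylase gene, Acaca, is given with the lipid synthesis genes.

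**Figure D3:**
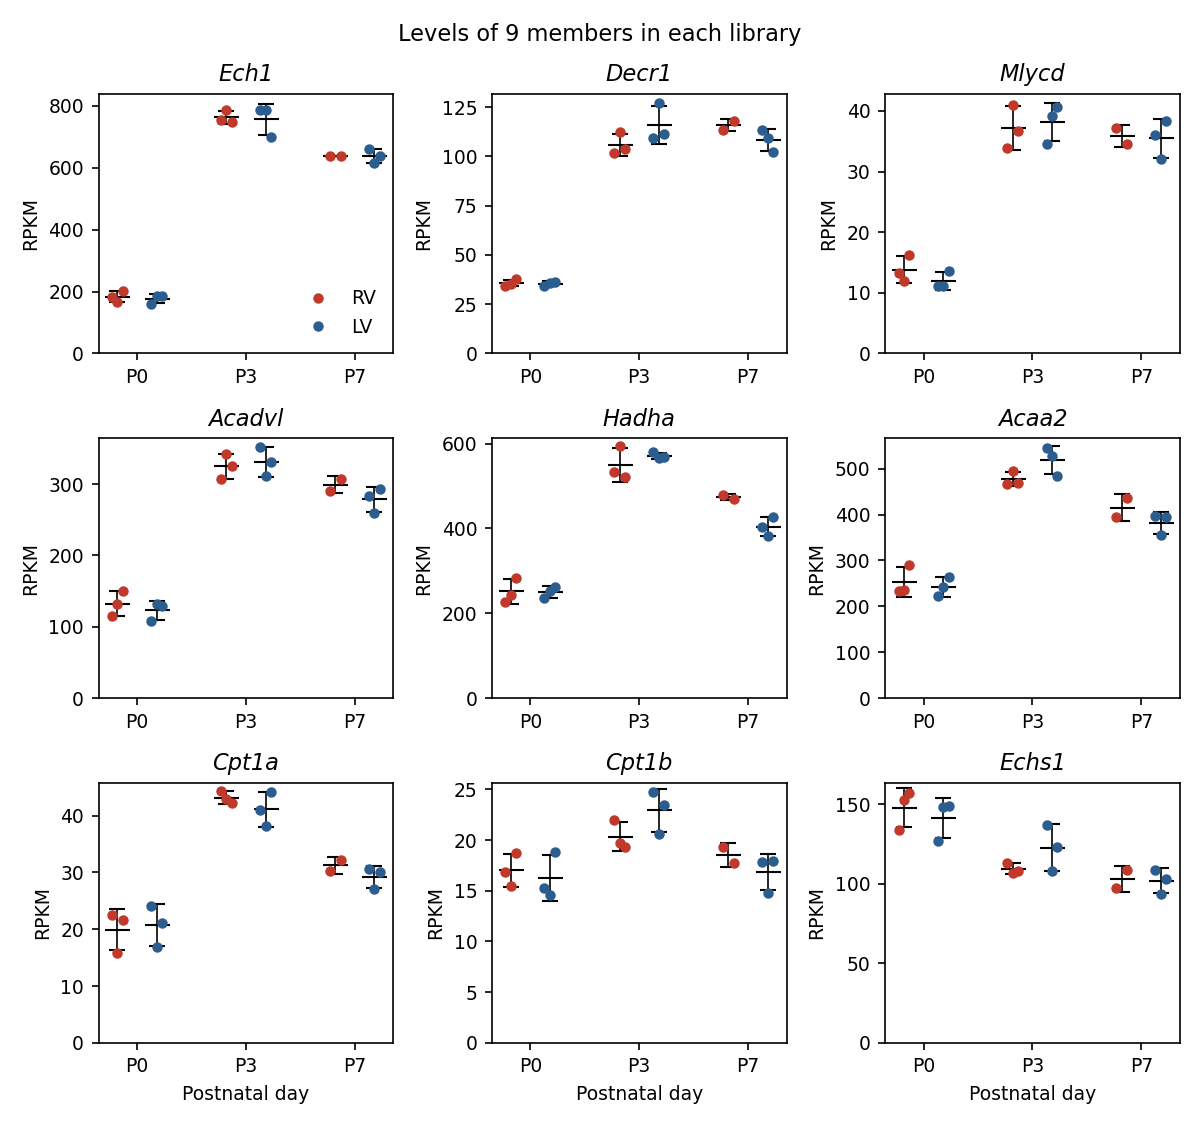
RPKM of 9 members in each library by postnatal day, RV points left of LV points, with the mean ± SD as bars. Ech1, Decr1, Mlycd and Acadvl at P3 and P7 lie far above P0; Cpt1a peaks at P3; as deposited, Cpt1b at P7 overlaps P0, and Echs1 is lower at P7 than at P0, a call lost under the other scalings.

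Of the acyl-CoA dehydrogenases, which take the step that opens each turn of the cycle, 5 of 7 tested rose and 1 was lower at P7 in each chamber. Acadvl, for very long chains (NM_017366, chr11:70010183-70015428), had in RV libraries 115, 132 and 149.7 RPKM at P0, 308, 343 and 325 at P3, and 290.4 and 307 at P7. LV libraries had 108, 132 and 129 RPKM at P0, 352, 311 and 331 at P3, and 284, 259 and 294 at P7. All later libraries lay well above the highest P0 library. Acadvl rose at P3 by 1.30 ± 0.10 in the RV (adjusted p = 1.6e-08) and 1.43 ± 0.10 in the LV (adjusted p = 6.42e-09). At P7, Acadvl was higher than at P0 by 1.18 ± 0.11 in the RV (adjusted p = 1.39e-07) and 1.18 ± 0.10 in the LV (adjusted p = 1.82e-08). Acadl, for long chains, was the most abundant of the group, and had 359, 397 and 452 RPKM at P0, 537, 573 and 560.4 at P3, and 494 and 519.8 at P7 in RV libraries. LV libraries had 370.2, 403 and 412 RPKM at P0, 651, 577 and 618 at P3, and 523, 476 and 471 at P7. Its ages did not overlap and P3 was highest. Acadl rose at P3 by 0.47 ± 0.09 in the RV (adjusted p = 0.000663) and 0.64 ± 0.09 in the LV (adjusted p = 4.76e-05). At P7, Acadl was higher than at P0 by 0.34 ± 0.10 in the RV (adjusted p = 0.0101) and 0.31 ± 0.09 in the LV (adjusted p = 0.00671), a smaller change than that of Acadvl from a higher P0 level.

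Acadm, for medium chains, averaged 253 ± 36.1, 319.9 ± 21.2 and 379.8 ± 26.9 RPKM at P0, P3 and P7 in the RV (SD, n = 3, 3 and 2), and 256 ± 20.4, 379 ± 27.9 and 357 ± 12.4 in the LV (SD, n = 3 each). It rose at P3 by 0.35 ± 0.10 in the RV (adjusted p = 0.0148) and 0.56 ± 0.10 in the LV (adjusted p = 0.000521). At P7, Acadm was higher than at P0 by 0.59 ± 0.12 in the RV (adjusted p = 0.000308) and 0.48 ± 0.10 in the LV (adjusted p = 0.000552). Acads, for short chains, kept within 55.6 to 77.8 RPKM over all libraries; its P7 difference from P0 was 0.12 ± 0.10 in the RV (adjusted p = 0.295) and 0.13 ± 0.09 in the LV (adjusted p = 0.196), which was called under upper-quartile scaling at 0.44 in the RV and 0.48 in the LV. The family members Acad11 and Acad12, at means of 17.2 and 4.75 RPKM over all libraries, rose at P7 in both chambers. The Acad11 change was 0.46 ± 0.11 in the RV (adjusted p = 0.00158) and 0.41 ± 0.10 in the LV (adjusted p = 0.00104). That of Acad12 was 0.44 ± 0.12 in the RV (adjusted p = 0.00431) and 0.35 ± 0.10 in the LV (adjusted p = 0.00685).

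Acad9, which is also an assembly factor of respiratory complex I, went the other way. RV libraries had 13.9, 12.8 and 15.1 RPKM at P0, 11.4, 10.8 and 13.1 at P3, and 10.7 and 10.5 at P7. LV libraries had 13.6, 14.6 and 15.4 RPKM at P0, 14.9, 11.8 and 13.2 at P3, and 10.3, 9.63 and 10.04 at P7. Each P7 library was below each P0 and P3 library of its chamber. The P7 change from P0 was -0.36 ± 0.11 in the RV (adjusted p = 0.0098) and -0.49 ± 0.10 in the LV (adjusted p = 0.000282). In the RV it was -0.06 (adjusted p = 0.625) under upper-quartile scaling and -0.07 (adjusted p = 0.678) after rescaling. In the LV it was -0.17 (adjusted p = 0.103) under upper-quartile scaling and -0.25 (adjusted p = 0.0351) after rescaling. Acad10, which did not pass the filter, had 0.859, 0.887 and 0.868 RPKM at P0, 0.921, 0.611 and 0.862 at P3, and 0.71 and 0.71 at P7 in RV libraries. LV libraries had 0.921, 0.643 and 0.764 RPKM at P0, 0.854, 0.648 and 0.779 at P3, and 0.551, 0.732 and 0.728 at P7. It was below 1 RPKM everywhere, with 61 to 137 reads per library, and was not tested under the filter as deposited.

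The remaining steps of the mitochondrial cycle were split between 4 members that rose and 2 that were lower at P7 in each chamber. Hadha and Hadhb, the subunits of the trifunctional protein, which takes long chains through the last steps of the cycle, are transcribed from neighbouring starts on chromosome 5. Hadha had in RV libraries 227, 244 and 283 RPKM at P0, 534, 594 and 521 at P3, and 479 and 468 at P7. LV libraries had 235, 253 and 263 RPKM at P0, 579, 565 and 569 at P3, and 404, 382 and 427 at P7. All ages stood apart, with P3 highest. Hadha rose at P3 by 1.13 ± 0.09 in the RV (adjusted p = 2.04e-08) and 1.19 ± 0.09 in the LV (adjusted p = 1.54e-08). At P7, Hadha was higher than at P0 by 0.92 ± 0.10 in the RV (adjusted p = 7.63e-07) and 0.69 ± 0.09 in the LV (adjusted p = 3.11e-06). Hadhb had 203, 193 and 213 RPKM at P0, 352, 406 and 366 at P3, and 324 and 357 at P7 in RV libraries. LV libraries had 162, 185 and 209 RPKM at P0, 431, 435 and 406 at P3, and 349, 336 and 368 at P7. Later libraries all lay above the P0 range, and P3 and P7 overlapped only in the RV. Hadhb rose at P3 by 0.88 ± 0.09 in the RV (adjusted p = 9.45e-07) and 1.19 ± 0.09 in the LV (adjusted p = 2.09e-08). At P7, Hadhb was higher than at P0 by 0.74 ± 0.10 in the RV (adjusted p = 1.28e-05) and 0.92 ± 0.09 in the LV (adjusted p = 1.49e-07).

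Acaa2, the mitochondrial thiolase, had in RV libraries 233, 236 and 291 RPKM at P0, 467, 495 and 469.8 at P3, and 394 and 435 at P7. LV libraries had 222, 241 and 264 RPKM at P0, 544, 528 and 485 at P3, and 396, 354 and 394 at P7. The ages did not overlap in either chamber. Acaa2 rose at P3 by 0.92 ± 0.10 in the RV (adjusted p = 9.38e-07) and 1.10 ± 0.10 in the LV (adjusted p = 1.07e-07). At P7, Acaa2 was higher than at P0 by 0.71 ± 0.11 in the RV (adjusted p = 3.05e-05) and 0.65 ± 0.10 in the LV (adjusted p = 1.37e-05). Hadh, the hydroxyacyl-CoA dehydrogenase for shorter chains, averaged 184 ± 19.3, 216 ± 12.5 and 238 ± 28.9 RPKM at P0, P3 and P7 in the RV (SD, n = 3, 3 and 2), and 177 ± 5.82, 229 ± 22.8 and 219.6 ± 36.6 in the LV (SD, n = 3 each); it rose at P7 by 0.37 ± 0.13 in the RV (adjusted p = 0.0175) and 0.30 ± 0.11 in the LV (adjusted p = 0.0256).

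Echs1, the hydratase for short chains, which also serves valine breakdown, had in RV libraries 134, 152 and 157 RPKM at P0, 113, 107 and 108 at P3, and 97.1 and 109 at P7. LV libraries had 127, 148 and 149 RPKM at P0, 137, 108 and 123 at P3, and 109, 93.3 and 103 at P7. Its P7 libraries all lay below the P0 range. Echs1 at P7 was lower than at P0, at -0.52 ± 0.11 in the RV (adjusted p = 0.000762) and -0.47 ± 0.10 in the LV (adjusted p = 0.000476). The call was lost under both other scalings, at -0.19 and -0.19 in the RV and -0.12 and -0.20 in the LV. Hsd17b10, a dehydrogenase of isoleucine breakdown that is also a subunit of mitochondrial RNase P, had 144, 149 and 149.9 RPKM at P0, 117, 124 and 108 at P3, and 92.2 and 108 at P7 in RV libraries. LV libraries had 139.5, 138 and 136 RPKM at P0, 121, 114 and 104 at P3, and 100.1, 96.4 and 92.5 at P7. P0 was highest and P7 lowest without overlap in both chambers, though the lowest RV P3 and the highest RV P7 library were close. Hsd17b10 at P7 was lower than at P0, at -0.56 ± 0.09 in the RV (adjusted p = 6.58e-05) and -0.51 ± 0.08 in the LV (adjusted p = 3.25e-05). Hsd17b10 was at -0.24 (adjusted p = 0.0707) under upper-quartile scaling and -0.24 (adjusted p = 0.0278) after rescaling in the RV. In the LV it was at -0.16 (adjusted p = 0.156) under upper-quartile scaling and -0.24 (adjusted p = 0.0102) after rescaling.

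The unsaturated-chain enzymes, which move or remove double bonds so that the cycle can go on, had the largest rise of the role groups in summed level. Their sum at P3 was 2.85 times that at P0 in the RV and 2.93 times in the LV. All 4 rose at P3 in both chambers, and 3 of them were higher at P7. Ech1, the dienoyl-CoA isomerase (NM_016772, chr7:28825338-28832239), had in RV libraries 183, 167 and 201 RPKM at P0, 753, 787 and 748 at P3, and 637 and 639 at P7. In LV libraries it had 159.9, 185 and 186 RPKM at P0, 786, 786 and 698 at P3, and 662, 616 and 636 at P7. The lowest P3 or P7 library was thus above 3 times the highest P0 library, and the P7 libraries lay below the P3 libraries in both chambers. Ech1 rose at P3 by 2.05 ± 0.09 in the RV (adjusted p = 3.2e-12) and 2.09 ± 0.09 in the LV (adjusted p = 2.24e-12), and its mean RPKM was 4.15 and 4.28 times that at P0. At P7 it was higher than at P0 by 1.79 ± 0.10 in the RV (adjusted p = 9.46e-11) and 1.85 ± 0.09 in the LV (adjusted p = 6.74e-12). Over 10 settings of the processing this change ranged between 1.79 and 2.12 in the RV and between 1.85 and 2.20 in the LV.

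Decr1, the mitochondrial dienoyl-CoA reductase that works beside Ech1 (NM_026172, chromosome 4), had in RV libraries 34.3, 35.3 and 37.6 RPKM at P0, 102, 112 and 104 at P3, and 114 and 118 at P7. LV libraries had 34.1, 35.6 and 36.4 RPKM at P0, 109.5, 127 and 111 at P3, and 113, 109 and 102 at P7. No P3 or P7 library came near the P0 range, and in the RV both P7 libraries were above all P3 libraries. Decr1 rose at P3 by 1.54 ± 0.08 in the RV (adjusted p = 6.19e-11) and 1.68 ± 0.08 in the LV (adjusted p = 1.39e-11). At P7, Decr1 was higher than at P0 by 1.67 ± 0.09 in the RV (adjusted p = 6.24e-11) and 1.58 ± 0.08 in the LV (adjusted p = 1.16e-11). Eci2, an enoyl-CoA isomerase found in mitochondria and peroxisomes, had in RV libraries 4.92, 4.02 and 4.13 RPKM at P0, 7.26, 6.84 and 8.31 at P3, and 6.69 and 9.36 at P7. LV libraries had 3.75, 4.73 and 3.95 RPKM at P0, 6.76, 8.96 and 8.5 at P3, and 7.92, 7.37 and 6.36 at P7. It rose at P3 by 0.66 ± 0.13 in the RV (adjusted p = 0.000774) and 0.82 ± 0.13 in the LV (adjusted p = 0.00015). At P7, Eci2 was higher than at P0 by 0.74 ± 0.15 in the RV (adjusted p = 0.000377) and 0.68 ± 0.13 in the LV (adjusted p = 0.000215), with no overlap between P0 and later libraries. The values are of 1 of its entries and may leave out reads shared with the other, whose group means ranged from 4.02 to 6.15 RPKM. Eci1, the mitochondrial enoyl-CoA isomerase, ranged over 141 to 228 RPKM; it rose at P3 by 0.31 ± 0.11 in the RV (adjusted p = 0.0387) and 0.35 ± 0.11 in the LV (adjusted p = 0.0229). The Eci1 difference at P7 from P0 was 0.08 ± 0.12 in the RV (adjusted p = 0.601) and 0.08 ± 0.11 in the LV (adjusted p = 0.53), not called as deposited but called under both other scalings, at 0.40 and 0.40 in the RV.

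Of the 3 carriers of electrons to the respiratory chain, 2 rose at P3 in the RV and all 3 in the LV, and 1 was higher at P7 in each chamber. Etfdh, the membrane oxidoreductase that hands them to ubiquinone, had in RV libraries 116, 136 and 144 RPKM at P0, 223, 219.6 and 231 at P3, and 204 and 234 at P7. LV libraries had 113, 133 and 130.4 RPKM at P0, 254, 239.9 and 238 at P3, and 209, 212 and 202 at P7. No later library overlapped P0. Etfdh rose at P3 by 0.76 ± 0.09 in the RV (adjusted p = 3.7e-06) and 0.96 ± 0.09 in the LV (adjusted p = 2.32e-07). At P7, Etfdh was higher than at P0 by 0.72 ± 0.10 in the RV (adjusted p = 1.15e-05) and 0.73 ± 0.09 in the LV (adjusted p = 1.77e-06). Etfb, a subunit of the soluble flavoprotein, had 67.3, 78.7 and 96.7 RPKM at P0, 114, 122 and 109 at P3, and 96.9 and 97.9 at P7 in RV libraries. LV libraries had 62.2, 72 and 76.7 RPKM at P0, 119.7, 99.3 and 106 at P3, and 96.1, 75.4 and 84.3 at P7. P3 was highest in both chambers, and 1 LV P7 library lay inside the LV P0 range. Etfb rose at P3 by 0.52 ± 0.12 in the RV (adjusted p = 0.00273) and 0.62 ± 0.12 in the LV (adjusted p = 0.000847), while its P7 difference from P0 was 0.28 ± 0.13 in the RV (adjusted p = 0.0802) and 0.27 ± 0.12 in the LV (adjusted p = 0.0511). Under upper-quartile scaling it was called, at 0.60 in the RV and 0.62 in the LV. The partner subunit Etfa kept within 176 to 255 RPKM; its P7 difference from P0 was 0.13 ± 0.10 in the RV (adjusted p = 0.295) and 0.16 ± 0.09 in the LV (adjusted p = 0.131), called under upper-quartile scaling at 0.45 in the RV and 0.51 in the LV.

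The summed level of the peroxisomal members at P7 lay near that at P0 as deposited and above it under the other scalings. As deposited it averaged 112 ± 5.39, 119 ± 0.876 and 109.6 ± 7.59 RPKM at P0, P3 and P7 in the RV (SD, n = 3, 3 and 2), and 112 ± 2.59, 119 ± 7.25 and 102 ± 5.65 in the LV (SD, n = 3 each). Of 7 tested, 2 were called higher and 1 lower at P7 in the RV, and 1 higher and 2 lower in the LV. The P7 sum over the P0 sum was 0.978 in the RV and 0.907 in the LV as deposited, 1.23 and 1.16 under upper-quartile scaling, and 1.23 and 1.09 after rescaling. Under upper-quartile scaling 3 of 7 were called higher and 0 lower at P7 in each chamber. At P3 in the RV, 2 of 7 were higher and 1 lower as deposited, and 5 of 8 were higher and 0 lower after rescaling. Abcd3, a transporter of the peroxisomal membrane, had 18.4, 19.2 and 19.8 RPKM at P0, 28.8, 26.6 and 28.9 at P3, and 24 and 28.3 at P7 in RV libraries. LV libraries had 18.8, 19.6 and 20.4 RPKM at P0, 32.7, 24.9 and 29.9 at P3, and 24.4, 22.4 and 23.1 at P7. Every later library was above the P0 range. Abcd3 rose at P3 by 0.53 ± 0.10 in the RV (adjusted p = 0.000315) and 0.55 ± 0.10 in the LV (adjusted p = 0.000339). At P7, Abcd3 was higher than at P0 by 0.43 ± 0.11 in the RV (adjusted p = 0.00249) and 0.24 ± 0.10 in the LV (adjusted p = 0.0349).

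Pex11a, a membrane protein of peroxisome proliferation, had 1.98, 1.23 and 1.44 RPKM at P0, 2.1, 2.35 and 2.08 at P3, and 2.9 and 3.02 at P7 in RV libraries. LV libraries had 2.19, 1.79 and 1.7 RPKM at P0, 2.82, 2.28 and 1.91 at P3, and 2.24, 1.34 and 1.59 at P7. RV values were higher at each later age without overlap, whereas all LV ages overlapped. Pex11a at P7 differed from P0 by 0.64 ± 0.15 in the RV (adjusted p = 0.00173) and -0.10 ± 0.14 in the LV (adjusted p = 0.543), called in the RV on 108 to 297 reads per library. The difference between the chambers in this change was not called.

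Decr2, the peroxisomal dienoyl-CoA reductase, had 16.8, 14.7 and 17.9 RPKM at P0, 10.9, 14.5 and 10.6 at P3, and 10.2 and 11.9 at P7 in RV libraries. LV libraries had 15, 14.5 and 17.7 RPKM at P0, 13.1, 14.3 and 11.2 at P3, and 11.1, 11.8 and 12.6 at P7. P0 was highest in both chambers without overlap, the reverse of its mitochondrial relative Decr1. Decr2 at P7 was lower than at P0, at -0.54 ± 0.14 in the RV (adjusted p = 0.00306) and -0.38 ± 0.12 in the LV (adjusted p = 0.0113). The call was lost at -0.23 in the RV and -0.05 in the LV under upper-quartile scaling. Hsd17b4, which takes the middle steps of the peroxisomal cycle, had 43.1, 43 and 45.9 RPKM at P0, 43.5, 44.8 and 42.6 at P3, and 37.2 and 39.6 at P7 in RV libraries. LV libraries had 46.6, 44.1 and 45.2 RPKM at P0, 45.5, 42.7 and 45 at P3, and 36.5, 33.9 and 35.2 at P7. Its P7 libraries were below all others. The Hsd17b4 difference at P7 from P0 was -0.19 ± 0.08 in the RV (adjusted p = 0.051) and -0.36 ± 0.07 in the LV (adjusted p = 0.000328), called in the LV. Under upper-quartile scaling it was 0.13 in the RV and -0.01 in the LV, neither called.

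Acaa1a, the peroxisomal thiolase, Ehhadh, a bifunctional enzyme known as a PPAR target in rodent liver, and Acox3, an oxidase of branched chains, had means over all libraries of 19.8, 3.21 and 7.47 RPKM. Their P7 changes from P0 were between -0.09 and 0.17 in the RV and between -0.06 and 0.09 in the LV, none called as deposited; Acox3 was called under upper-quartile scaling, at 0.46 and 0.40, as was Acaa1a in the LV, at 0.27 (adjusted p = 0.0108). Acox3 was also called at P3 in the RV as deposited, at 0.34 ± 0.10 (adjusted p = 0.0115). Abcd2, another peroxisomal transporter, did not pass the filter and had 0.127, 0.163 and 0.144 RPKM at P0, 0.301, 0.57 and 0.314 at P3, and 0.464 and 0.421 at P7 in RV libraries. LV libraries had 0.171, 0.0947 and 0.201 RPKM at P0, 0.332, 0.252 and 0.242 at P3, and 0.746, 0.332 and 0.511 at P7. Later libraries were above P0 in both chambers, on only 16 to 147 reads each. Abcd2 was tested only after rescaling, where it passed the filter, or with no filter.

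**Figure D4:**
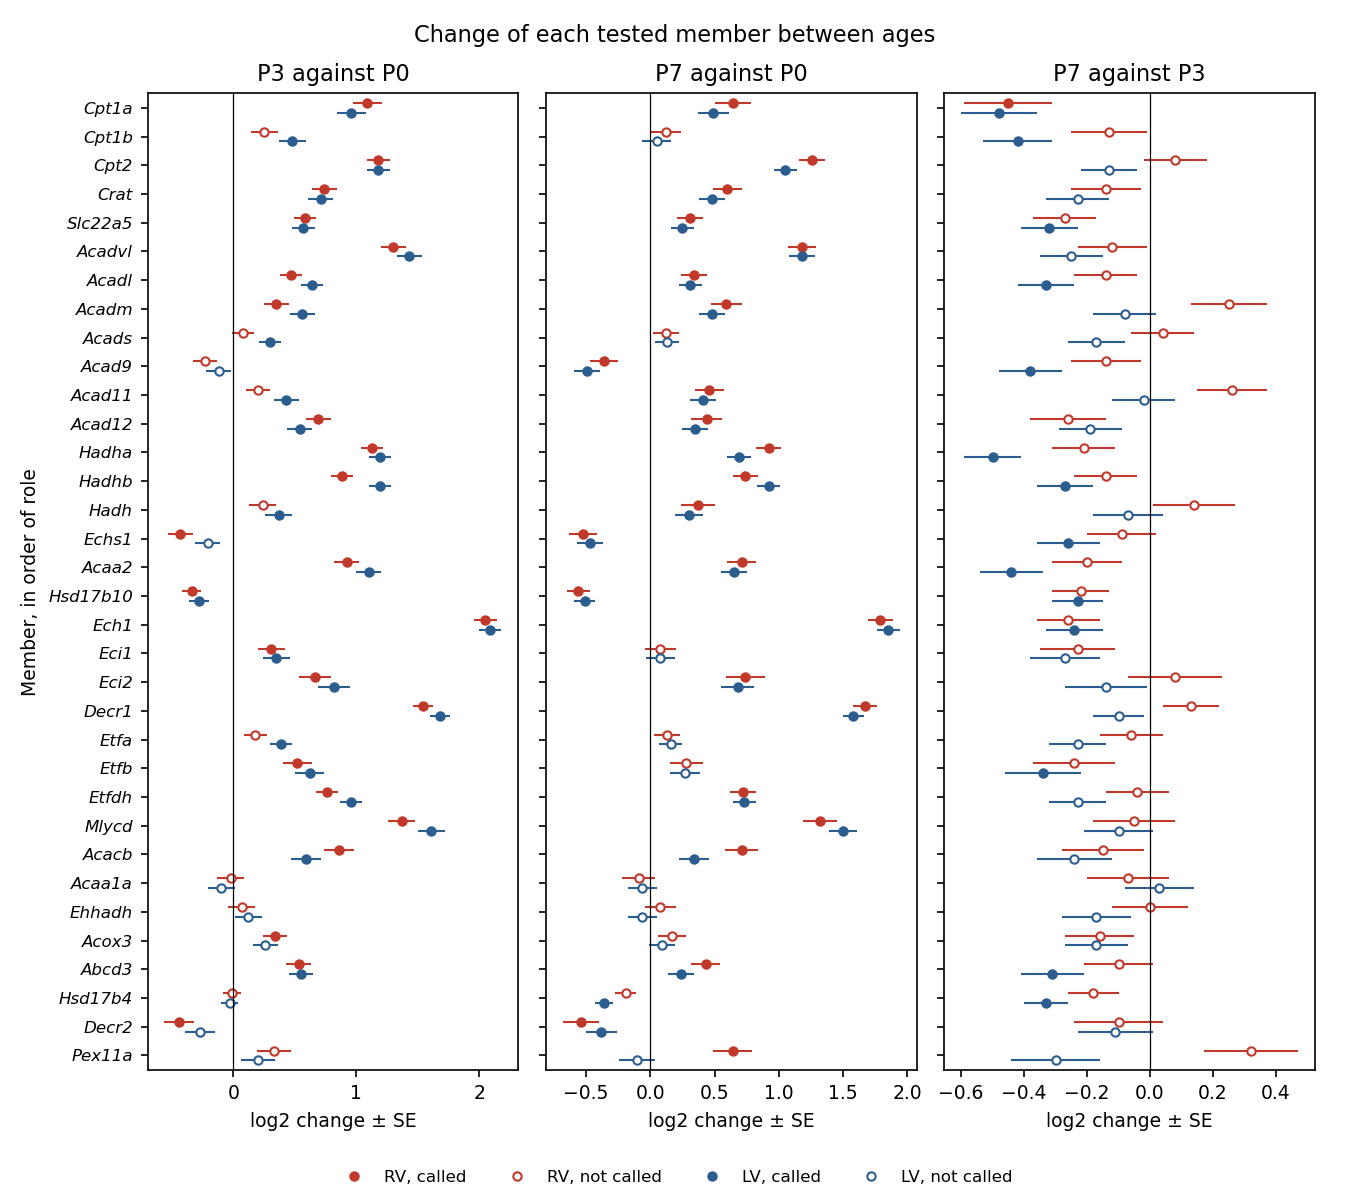
log2 change ± SE of each tested member between ages, RV above LV; filled points were called (adjusted p under 0.05). Between P3 and P0 and between P7 and P0 most points lie to the right of 0, with Ech1 farthest; between P7 and P3 most LV points lie to the left.

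For most members that rose, the change was in place at P3. Of the change between P0 and P7 on the log2 scale, the median share already present at P3 was 1.14 over the 21 members called higher in the RV (range 0.44 to 1.88) and 1.31 over the 20 in the LV (1.05 to 2.28), where a value over 1 means that P3 was above P7. In the LV all 20 were over 1 as deposited; under upper-quartile scaling 13 were and the median was 1.04, with 0.91 in the RV. The RV shares were lowest for Acad11 (0.44), Pex11a (0.51), Acadm (0.58) and Hadh (0.64), members whose P7 mean lay above their P3 mean in that chamber. These shares carry no test.

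As deposited, no member was called higher at P7 than at P3, and some were called lower in the LV. In the RV, 0 members were called higher and 1 lower at P7, against 2.5% and 14.8% of all tested entries; in the LV 0 were higher and 14 lower, against 6.56% and 27.9%. The RV call was Cpt1a, at -0.45 ± 0.14 (adjusted p = 0.0309). The largest positive RV differences were Pex11a at 0.32 ± 0.15 (adjusted p = 0.142), Acad11 at 0.26 ± 0.11 (adjusted p = 0.0969) and Acadm at 0.25 ± 0.12 (adjusted p = 0.129), none of them called. In the LV the largest were Hadha at -0.50 ± 0.09 (adjusted p = 0.000605), Cpt1a at -0.48 ± 0.12 (adjusted p = 0.00687), Acaa2 at -0.44 ± 0.10 (adjusted p = 0.00234) and Cpt1b at -0.42 ± 0.11 (adjusted p = 0.00719). The other LV calls were Slc22a5, Acadl, Acad9, Hadhb, Echs1, Hsd17b10, Ech1, Etfb, Abcd3 and Hsd17b4, with changes of -0.38 to -0.23. Upper-quartile scaling left 2 LV calls, Cpt1a and Hadha, which were also called after rescaling. It gave these 3 RV members as higher, Pex11a at 0.46, Acad11 at 0.44 and Acadm at 0.44. Of all 10668 entries, that scaling gave 1432 higher and 1355 lower in the LV and 637 and 553 in the RV. After rescaling, 1 member, Abcd2, was higher and 6 lower of 36 in the LV, beside 1089 and 1902 of 12781 entries. In the RV it was 0 in either direction, beside 390 and 1003. The LV count was 5 without LV P3 replicate 1, 9 without LV P3 replicate 3, 8 without LV P7 replicate 2 and 9 without LV P7 replicate 3; the RV count was 0 without any 1 of the RV P3 or P7 libraries; both were 0 with only the libraries in which NM_008710 was at 1 RPKM or more.

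Between the ventricles no member was called at any age. At P0, 0 of 34 tested members differed between RV and LV by limma, against 0.141% of all tested entries, and 0 had an unadjusted p under 0.05; the differences lay between -0.19 and 0.20. At P3 the count was 0 against 0.825% of all entries, with 1 member at an unadjusted p under 0.05, Acadm at -0.24 ± 0.10 (adjusted p = 0.362). At P7 it was 0 against 0.159%, with 3 at an unadjusted p under 0.05: Cpt2 at 0.22 ± 0.10 (adjusted p = 0.704), Hadha at 0.23 ± 0.10 (adjusted p = 0.651) and Pex11a at 0.55 ± 0.15 (adjusted p = 0.19). The chamber differences of the members were between -0.09 and 0.55 at P7 with SEs of 0.08 to 0.15, so a chamber difference well under the age changes could have been missed. The change between P0 and P7 itself differed between chambers for 0 members, against 0.0375% of all entries; 2 had an unadjusted p under 0.05, Pex11a at 0.74 ± 0.21 (adjusted p = 0.404) and Acacb at 0.37 ± 0.18 (adjusted p = 0.998). Taking RV and LV libraries of an age as pairs left all of these member counts at 0. In that paired fit 98, 639 and 107 of all 10668 entries were called between chambers at P0, P3 and P7 and 35 in the difference of the changes, against 15, 88, 17 and 4 without pairs.

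Most tested genes of a list on fatty acid uptake, binding and activation rose as well. Not all of the list delivers fatty acids, since it also holds the inhibitor Angptl4. Of 21 genes of uptake, binding and activation, 11 rose and 3 fell of 17 tested at P7 in the RV and 13 rose and 4 fell of 17 tested in the LV, against 9.81% higher and 46.1% lower of all tested entries in the RV and 11.8% and 53% in the LV. Under upper-quartile scaling 13 rose and 3 fell in the RV, and 13 and 2 in the LV. Angptl4, a secreted inhibitor of lipoprotein lipase, averaged 4.28 ± 1.61, 58.2 ± 5.57 and 41.6 ± 6.81 RPKM at P0, P3 and P7 in the RV (SD, n = 3, 3 and 2). Angptl4 rose at P7 by 3.05 ± 0.21 in the RV (adjusted p = 1.86e-09) and 2.84 ± 0.19 in the LV (adjusted p = 5.52e-10). Fabp3, the fatty acid binding protein of heart, was the most abundant, with 1834 ± 291, 4885 ± 265 and 6082 ± 719 RPKM in the RV (SD, n = 3, 3 and 2). Fabp3 rose at P7 by 1.74 ± 0.15 in the RV (adjusted p = 4.63e-08) and 1.80 ± 0.14 in the LV (adjusted p = 3.5e-09). Cd36, a fatty acid receptor of the cell surface, of which 1 of 5 entries was read, rose by 1.72 ± 0.27 in the RV (adjusted p = 3.91e-05) and 1.73 ± 0.24 in the LV (adjusted p = 6.37e-06). Acsl1, which activates long-chain fatty acids with CoA, rose by 1.09 ± 0.15 in the RV (adjusted p = 6.91e-06) and 0.92 ± 0.13 in the LV (adjusted p = 7.17e-06). Slc25a20, the carrier that brings acylcarnitines through the inner membrane ahead of Cpt2, rose by 0.91 ± 0.09 in the RV (adjusted p = 3.2e-07) and 0.84 ± 0.08 in the LV (adjusted p = 1.12e-07).

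Genes known to control the pathway were read next. Of 17 regulators, 1 rose and 3 fell of 12 tested at P7 in the RV and 1 rose and 6 fell of 12 tested in the LV, with a median change of -0.20 and -0.29, beside -0.29 and -0.31 over all tested entries. Of all tested entries 9.81% rose and 46.1% fell in the RV, and 11.8% rose and 53% fell in the LV. Under upper-quartile scaling 3 rose and 1 fell in the RV, and 3 and 3 in the LV. Perm1, a muscle regulator of mitochondrial genes, rose by 0.82 ± 0.18 in the RV (adjusted p = 0.00112) and 0.77 ± 0.16 in the LV (adjusted p = 0.0005). Klf15, a transcription factor of muscle lipid use, fell, at -1.35 ± 0.13 in the RV (adjusted p = 1.83e-07) and -1.61 ± 0.12 in the LV (adjusted p = 2.04e-09). As deposited, Hif1a, the hypoxia factor, fell as well, at -0.47 ± 0.10 in the RV (adjusted p = 0.000494) and -0.62 ± 0.09 in the LV (adjusted p = 7.02e-06). Esrra, a nuclear receptor of the ERR family, averaged 33.1 ± 1.72, 30.9 ± 3.36 and 28.3 ± 2.31 RPKM in the RV (SD, n = 3, 3 and 2). Its P7 difference from P0 was -0.22 ± 0.12 in the RV (adjusted p = 0.113) and -0.19 ± 0.11 in the LV (adjusted p = 0.111). Ppargc1a, a coactivator of nuclear receptors, had a P7 difference from P0 of -0.04 ± 0.13 in the RV (adjusted p = 0.802) and -0.55 ± 0.11 in the LV (adjusted p = 0.000426), called in the LV as deposited. Ppara, read from 1 of its 2 entries at a mean of at most 0.247 RPKM, did not pass the filter; that entry may leave out reads shared with the other.

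Of 23 peroxisomal genes that are not members, 4 rose and 2 fell of 18 tested at P7 in the RV and 4 rose and 3 fell of 18 tested in the LV, against the same shares of all entries, 9.81% and 46.1% in the RV and 11.8% and 53% in the LV. Scp2, a lipid carrier and thiolase, rose by 0.66 ± 0.09 in the RV (adjusted p = 1.53e-05) and 0.68 ± 0.08 in the LV (adjusted p = 1.92e-06). Cat, catalase, rose by 0.81 ± 0.11 in the RV (adjusted p = 5.44e-06) and 0.56 ± 0.09 in the LV (adjusted p = 4.84e-05). Under upper-quartile scaling 7 of the list rose and 0 fell in the RV, and 7 and 0 in the LV.

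Oxct1, which uses ketone bodies, averaged 197 ± 28.9, 75.7 ± 13.8 and 131 ± 15.3 RPKM at P0, P3 and P7 in the RV (SD, n = 3, 3 and 2), lowest at P3. Oxct1 fell at P7, at -0.57 ± 0.15 in the RV (adjusted p = 0.00341) and -0.59 ± 0.13 in the LV (adjusted p = 0.000896). Acat1, the mitochondrial acetoacetyl-CoA thiolase, rose at P7, by 0.40 ± 0.08 in the RV (adjusted p = 0.000595) and 0.28 ± 0.07 in the LV (adjusted p = 0.00317). Under upper-quartile scaling Oxct1 was no longer called lower at P7.

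As deposited, most genes of the lists of lipid synthesis and of glucose use were lower at P7. The first list also holds subunits of AMP-activated kinase. Of 8 genes of malonyl-CoA and lipid synthesis, 0 rose and 6 fell of 7 tested at P7 in the RV and 0 rose and 6 fell of 7 tested in the LV, where 46.1% of all tested entries fell in the RV and 53% in the LV. Under upper-quartile scaling 5 fell in the RV and 6 in the LV. Scd2, a desaturase, fell, at -2.24 ± 0.12 in the RV (adjusted p = 6.7e-11) and -2.27 ± 0.11 in the LV (adjusted p = 5.7e-12). Fasn, fatty acid synthase, fell, at -0.78 ± 0.16 in the RV (adjusted p = 0.000427) and -1.26 ± 0.14 in the LV (adjusted p = 5.15e-07). So did Prkaa2, a catalytic subunit of AMP-activated kinase, which inhibits the carboxylases, at -1.11 ± 0.14 in the RV (adjusted p = 2.6e-06) and -1.42 ± 0.12 in the LV (adjusted p = 1.69e-08). Acaca, the cytosolic carboxylase, averaged 4.86 ± 0.961, 3.37 ± 0.128 and 1.93 ± 0.143 RPKM in the RV (SD, n = 3, 3 and 2). Its P7 change from P0 was -0.99 ± 0.16 in the RV (adjusted p = 6.04e-05) and -1.11 ± 0.14 in the LV (adjusted p = 2.96e-06). Of 19 genes of glucose use, 4 rose and 12 fell of 19 tested in the RV and 4 rose and 13 fell of 19 tested in the LV; the shares of all entries that fell are those just given. Under upper-quartile scaling 10 of this list fell in the RV and 9 in the LV, where 2193 and 2698 of all 10668 tested entries fell. Slc2a1, the fetal glucose transporter, fell, at -3.45 ± 0.14 in the RV (adjusted p = 2.69e-12) and -3.26 ± 0.13 in the LV (adjusted p = 5.13e-13). Pgam1, a glycolytic mutase, fell, at -2.15 ± 0.14 in the RV (adjusted p = 5.59e-10) and -2.09 ± 0.12 in the LV (adjusted p = 1.1e-10). Pdk4, the kinase that shuts pyruvate dehydrogenase, rose by 3.11 ± 0.18 in the RV (adjusted p = 1.08e-10) and 2.67 ± 0.16 in the LV (adjusted p = 1.14e-10).

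Markers of cells that could carry these genes were read in the same libraries. Brown fat oxidises fatty acids strongly, and its defining marker Ucp1 was listed at 0 in all 6 P0 libraries and at most at 0.0668 RPKM in any. Of 7 fat markers 3 had an entry; their sum was 10.1 to 13.8, 29.3 to 34.4 and 25.8 to 31.1 RPKM at P0, P3 and P7 in the RV, and 9.68 to 10.5, 27.7 to 33.6 and 28.1 to 28.9 in the LV, nearly all of it Cidea. Liver markers, 5 of 6 with an entry, summed to at most 5.04 RPKM, with Alb at most at 0.0823. The 8 cardiomyocyte markers were all present and summed to 31831 to 40756, 29204 to 31468 and 27686 to 31119.8 RPKM in the RV and 32845 to 37804, 29476 to 36546 and 27205 to 28990.3 in the LV.

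Marker sums of other cells also differed between ages. At P0, P3 and P7, the 6 erythroid markers summed to 1281 to 2922, 418 to 609 and 1113 to 1135 RPKM in the RV. In the LV they summed to 1571 to 2409, 527 to 537 and 1438 to 1888. Both were lowest at P3, where most members had their highest mean as deposited. Under upper-quartile scaling the summed level of the members in the RV was higher at P7, at 1.06 times that at P3. The 7 endothelial markers summed to 179 to 217, 226 to 249 and 272 to 275 RPKM in the RV and 183 to 206, 246 to 257 and 342 to 388 in the LV. The 7 fibroblast markers summed to 502 to 706, 854 to 1164 and 974 to 1132 RPKM in the RV and 572 to 806, 626 to 936 and 879 to 988 in the LV. Macrophage markers, 5 of 6 with an entry, summed to 26.5 to 43.9, 50.5 to 71.8 and 66 to 74.4 RPKM in the RV and 41.1 to 55, 46.8 to 55.7 and 71.4 to 78.4 in the LV. The 6 smooth muscle and pericyte markers summed to 700.4 to 824, 421 to 631 and 588 to 717 RPKM in the RV and 669 to 791, 371 to 511 and 485 to 510.2 in the LV. The 5 atrial markers summed to 857 to 1207, 135 to 208 and 56.2 to 178 RPKM in the RV and 995 to 1257, 241 to 370.4 and 208 to 320.2 in the LV. The 8 skeletal muscle markers, nearly all Ckm and with Myh4 at most at 0.00444 RPKM, summed to 1616 to 2263, 1294 to 1329 and 1217 to 1292 RPKM in the RV and 1703 to 1997, 1348 to 1505 and 1131 to 1343 in the LV. The part of these shifts in the changes of the members was not tested.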

How the data were processed

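Each of the 17 libraries had 1 table of RefSeq entries with 1 value each. Per the labels, libraries were strand-specific and paired-end; per the submitters' processing notes, STAR 2.4.0j and the mm10 genome were used. The counting tool and annotation version are not named in the labels or headers. The deposited values were read as RPKM from their steps: low values times transcript length gave whole reads for 99.93% of 20624 entries in every library (tolerance 0.02 reads), which also gave transcript lengths and 27.6 M to 41.1 M reads (M, units of 1000000) per library, where both mates of a pair may be counted. Of the entries, 20379 were named from RefSeq and 76 from GENCODE; in genes with several entries the value of 1 entry may leave out reads shared with the others.

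Changes were tested with limma 3.58.1 (R 4.3.3) on log2(RPKM + 1) in 1 model of the 6 chamber and age groups with a mean-variance trend, after a filter of at least 1 RPKM in at least 2 libraries, and p-values were adjusted by Benjamini-Hochberg over the 10668 entries left. A fold change on this scale understates the change of low genes. The method was tested on simulated data. The 10 comparisons set each later age against each earlier one within a chamber, RV against LV within an age, and the change between P0 and P7 of one chamber against that of the other. The p-values measure the spread between these libraries. Alternatives covered the scaling (upper quartile over tested entries, or an equal sum over listed entries), the pseudocount, the filter, summed entries, no trend, the groups in the fit, a replicate block and leaving out each library; the restriction by NM_008710 was chosen after seeing the data.

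LV and RV libraries of the same age and replicate number deviated together (r of 0.269 to 0.587 over 8 pairs), so chambers were also compared within these pairs. No 2 libraries agreed within sampling noise.

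The members and lists were chosen with earlier results of these data known. Values in every library are given for Cpt1a, Cpt1b, the members among the 12 largest changes between P7 and P0 in either chamber, those called between chambers or called lower between ages, and those under the filter. From each other list, up to 3 called genes with the largest LV change between P7 and P0 are named, with Ppara, Ppargc1a, Esrra, Slc25a20, Acsl1 and Pdk4; Acaca and the marker genes singled out were added after their values were seen. Some genes that this rule names are not reported here.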

Additional observations from a re-analysis of the deposited data

How the results depend on the processing

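Between P7 and P0 and between P3 and P0, the number of members called stayed within 1.5 times in both chambers under the scalings, pseudocounts, filters, fits and blocks tried, with 21 to 27 (LV, P7), 21 to 26 (RV, P7), 23 to 26 (LV, P3) and 21 to 23 (RV, P3) when 1 library was left out; with only the libraries in which NM_008710 was at 1 RPKM or more, LV calls at P3 numbered 16. These are totals of both directions, and many other entries were called too. As deposited, 25 of 34 members were called at P7 in each chamber. All entries called were 6922 of 10668 in the LV and 5964 in the RV. Without LV P7 replicate 1, 21 of 34 were called in the LV, beside 6537 of 10650 entries. A steady total at P7 therefore says little about the members in particular. At P3 the totals as deposited were 26 in the LV and 24 in the RV, beside 2975 and 3332 entries. The upper-quartile and rescaled values turned the split toward higher calls. Under upper-quartile scaling it was 27 and 0 in place of 20 and 5 in the LV at P7. The step between P7 and P3 was less stable. In the LV, 2 members were called under upper-quartile scaling and 7 after rescaling. When 1 library was left out, 5 to 14 were called, beside the counts of all entries given above. With only the NM_008710 libraries, fewer were called than as deposited in both chambers. In the RV, 3 were called under upper-quartile scaling, 0 after rescaling and 0 when 1 library was left out. With no filter 0 of 36 were called, beside 1274 of 20624 entries. With only the groups compared 2 were called, 1 in each direction, beside 2418 of 10668 entries. The cause was not tested.

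With the replicate number as a block, 20 of 34 members were called in the LV between P7 and P3, beside 4232 of 10668 entries. Between P7 and P0, 25 were called in each chamber, beside 7250 entries in the LV and 6188 in the RV. Libraries of 1 chamber with the same number at different ages had an r of -0.073 to 0.180, with a median of 0.014. Across chambers and ages r was -0.075 to 0.077, so the number was not read as a pairing between ages. Within LV and RV pairs of an age, 0 members were called.

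The summed level over the P0 sum was 1.821 and 1.965 in the RV at P3 under upper-quartile scaling and rescaling, 1.923 and 1.928 in the RV at P7, 2.043 and 2.040 in the LV at P3, and 1.925 and 1.819 in the LV at P7. Leaving out 1 library gave 1.598 to 1.745, 1.477 to 1.613, 1.766 to 1.866 and 1.460 to 1.543 in the same order. The median share of the change present at P3 was 0.914 and 1.030 in the RV under these scalings and 1.077 to 1.159 when 1 library was left out, and 1.042 and 1.129 in the LV, with 1.269 to 1.460. The Cpt1b share at P7 minus that at P0 lay between -10.83 and -7.21 percentage points in the RV and between -10.17 and -6.01 in the LV when 1 library was left out.

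Acaa1a in the LV between P7 and P0 turned to 0.273 (adjusted p = 0.0108, limma) under upper-quartile scaling, and Hsd17b4 in the RV between P3 and P0 to 0.227 (adjusted p = 0.0132, limma) after rescaling. The RPKM scale cannot show whether total RNA per cell changed. As deposited, Acad10 and Abcd2 had too few reads to be tested under the filter.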
